A study of Mus musculus with 12 samples.

Results

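In mouse KP lung adenocarcinoma cells, 110 of the 24421 genes counted were detected almost only after BACH1 knockout. A gene was taken when its raw counts summed to 10 or less over the 6 control libraries and reached 10 or more in each of the 6 knockout libraries, whatever its type of name. The genes were therefore chosen by the contrast between knockout and control cells, and their levels in those cells are described here without a test. The FEM1B siRNA was tested in the knockout cells. The choice did not contrast the siRNA groups, but it required 10 or more counts in each library of both.

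Messenger RNA was sequenced from KP, a line labelled as lung adenocarcinoma with the genotype KrasLSL-G12D/+; Trp53flox/flox, which all groups share. The 4 groups of 3 libraries were BACH1 knockout cells (guide RNA sgBACH1, CRISPR/Cas9) with siRNA against Fem1b (siFEM1B), knockout cells with control siRNA (siCTRL), control cells (guide RNA sgCTRL) with siFEM1B, and control cells with siCTRL, all after 48 hours of siRNA. The design text calls the 3 libraries of a group biological replicates. A single knockout line and a single control line are named, and whether either is a clone or a pool is not given in the sources used here, so what the guide did and how the lines otherwise differ cannot be told apart.

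BACH1 is a heme-binding transcriptional repressor that pairs with small MAF proteins on sites in gene promoters and enhancers, where it competes with the activator NRF2. Heme binding and ubiquitin ligases remove it, and its best known target is the heme oxygenase gene. FEM1B selects substrates for a CUL2 ubiquitin ligase. The study asked what loss of either protein does to genes that bear on ferroptosis, a cell death driven by iron and lipid peroxides.

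Total counts ran from 16539168 to 21719512 in the sgBACH1 libraries and from 18530571 to 22196999 in the sgCTRL libraries. Fem1b averaged 49.0 CPM (counts scaled by the library's total and its TMM factor) with siFEM1B and 139 CPM with siCTRL in knockout cells, and 51.7 and 163 CPM in control cells. The comparison of the siRNAs called (edgeR, adjusted p under 0.05) 41.7% of the genes tested in knockout cells and 45.0% in control cells (22.1% higher, 22.9% lower). Bach1 transcript averaged 39.9 and 29.5 CPM in knockout cells with siFEM1B and siCTRL, against 41.4 and 31.4 CPM in control cells; a CRISPR lesion need not lower its transcript, so these values check nothing about the knockout. The epithelial marker list summed to 7084 to 8001 CPM in sgBACH1 libraries and 8577 to 9382 CPM in sgCTRL libraries, with Krt8, Krt18 and Krt19 highest and Esrp1 at 0. Of its 8 tested genes, 3 were called higher in sgBACH1 cells with siCTRL, Cdh1 (645 CPM in sgBACH1 and 322 CPM in sgCTRL cells), Ocln (1.52 and 0.0962 CPM) and Epcam (0.309 and 0.0314 CPM), and 3 lower, Krt7 (446 and 1733 CPM), Krt18 (2236 and 2821 CPM) and Cldn4 (0.399 and 1.93 CPM). Of the alveolar type 2 list, which summed to 191 to 204 CPM in sgBACH1 and 173 to 193 CPM in sgCTRL libraries, Sftpa1, Sftpd and Nkx2-1 were at 0 in every library. Lists for other cell types summed to 8.63 to 11.2 CPM in sgBACH1 against 18.4 to 25.2 CPM in sgCTRL libraries for fibroblasts, 5.54 to 11.3 against 7.64 to 30.3 CPM for leukocytes, 2.20 to 3.74 against 2.06 to 4.10 CPM for endothelium, 52.7 to 92.4 against 80.7 to 119 CPM for neurons and 25.5 to 32.3 against 25.6 to 30.9 CPM for germ cells and placenta. Genes at 0 in every library were 3 of 10 for leukocytes (Cd3e, Adgre1, Tyrobp), 3 of 10 for endothelium (Emcn, Erg, Cldn5), 4 of 10 for neurons (Rbfox3, Elavl4, Stmn2, Dcx) and 2 of 10 for germ cells and placenta (Mael, Tpbpa). Other genes of these lists were present: over the group means, Cd68 of the leukocyte list was at 5.57 to 24.6 CPM, Tubb3, Map2 and Snap25 of the neuron list at 24.1 to 48.2, 15.6 to 31.9 and 12.0 to 32.0 CPM, and Egfl7 of the endothelial list at 1.62 to 2.502 CPM, while Cdh5 had 1 count over the sgBACH1 and 84 over the sgCTRL libraries. None of the 110 genes is on these 7 lists of 10 genes each, and the part of such cells in the levels below was not tested.

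Together the 110 genes made up 483 to 512 CPM in each sgBACH1 library and 2.12 to 3.22 CPM in each sgCTRL library. Their summed raw counts were 8224 to 10723 in the sgBACH1 libraries, against 45 to 66 in the sgCTRL libraries. Every one of them had counts in each sgBACH1 library by the rule, while 23 to 38 of them had any count in a given sgCTRL library. Over the 6 sgCTRL libraries, 32 genes had no count at all, 40 had 1 to 3 counts and 38 had 4 to 10 counts, and the highest count in a single sgCTRL library was 6, for Myrf. Each gene's sgCTRL level below therefore rests on a few reads at most.

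**Figure D1:**
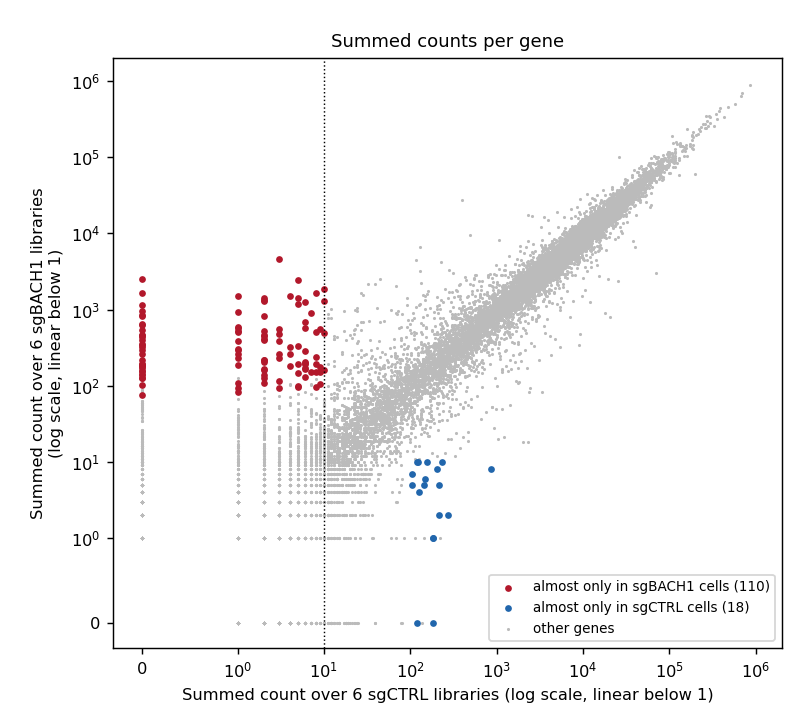
Summed raw counts of each gene over the 6 sgBACH1 libraries (vertical, log scale) against the 6 sgCTRL libraries (horizontal, log scale, linear below 1 on both axes), with the dotted line at a sum of 10. The 110 genes (red) lie on or left of the line and reach 4564 counts in sgBACH1 cells for Fyn. The 18 genes that meet the mirrored rule (blue) lie right of the line, in the lower part.

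These genes were low in the knockout cells too. Their mean over the 6 sgBACH1 libraries had a median of 2.48 CPM, against 38.8 CPM for the other genes with 10 or more counts in each sgBACH1 library. Means of 10 CPM or more were found for 15 genes, of 1 to 10 CPM for 83 and under 1 CPM for 12, from 0.651 CPM for 2610035F20Rik to 39.2 CPM for Fyn. The 3 highest genes carried 16.5% of the summed CPM. The floor of 3 counts over the 6 sgCTRL libraries corresponds to 0.0241 CPM. Since RNA was taken from cells in bulk, fewer cells that express a gene and less RNA per cell cannot be told apart.

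The rule is a pair of cutoffs on a continuous scale. Just inside the limit on control cells, Ctsf, Myrf and Smoc2 had sgCTRL sums of 10, and just outside it Celsr2, Crip1 and Gpr157 had sums of 11. Just inside the minimum in knockout cells, 2610035F20Rik, Car12 and Elovl4 had a lowest sgBACH1 count of 10, and just outside it BC030500, Fahd2a and Gstm4 had a lowest count of 9. Of 12276 genes with 10 or more counts in each sgBACH1 library, 0.896% met the rule. With the roles of knockout and control exchanged, 18 of 12169 genes did (0.148%), and with the roles of the 2 siRNAs as the groups, none did in either direction.

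By role, assigned from general knowledge of each gene, the largest group was 19 enzymes and proteins that bind small molecules, followed by 18 transcription factors, 11 adhesion or cell surface proteins, 11 kinases and other signalling proteins, 10 proteins of the cytoskeleton, trafficking or the synapse, 9 transporters or channels, 6 secreted or matrix proteins, 5 receptors, 3 RNA-binding proteins, 3 non-coding RNAs and 2 components of ubiquitin ligases. For 13 genes no role was assigned. Protein-coding genes made up 107 of the 110, and none had a Gm name, although 188 Gm genes reached 10 counts in each sgBACH1 library.

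**Figure D2:**
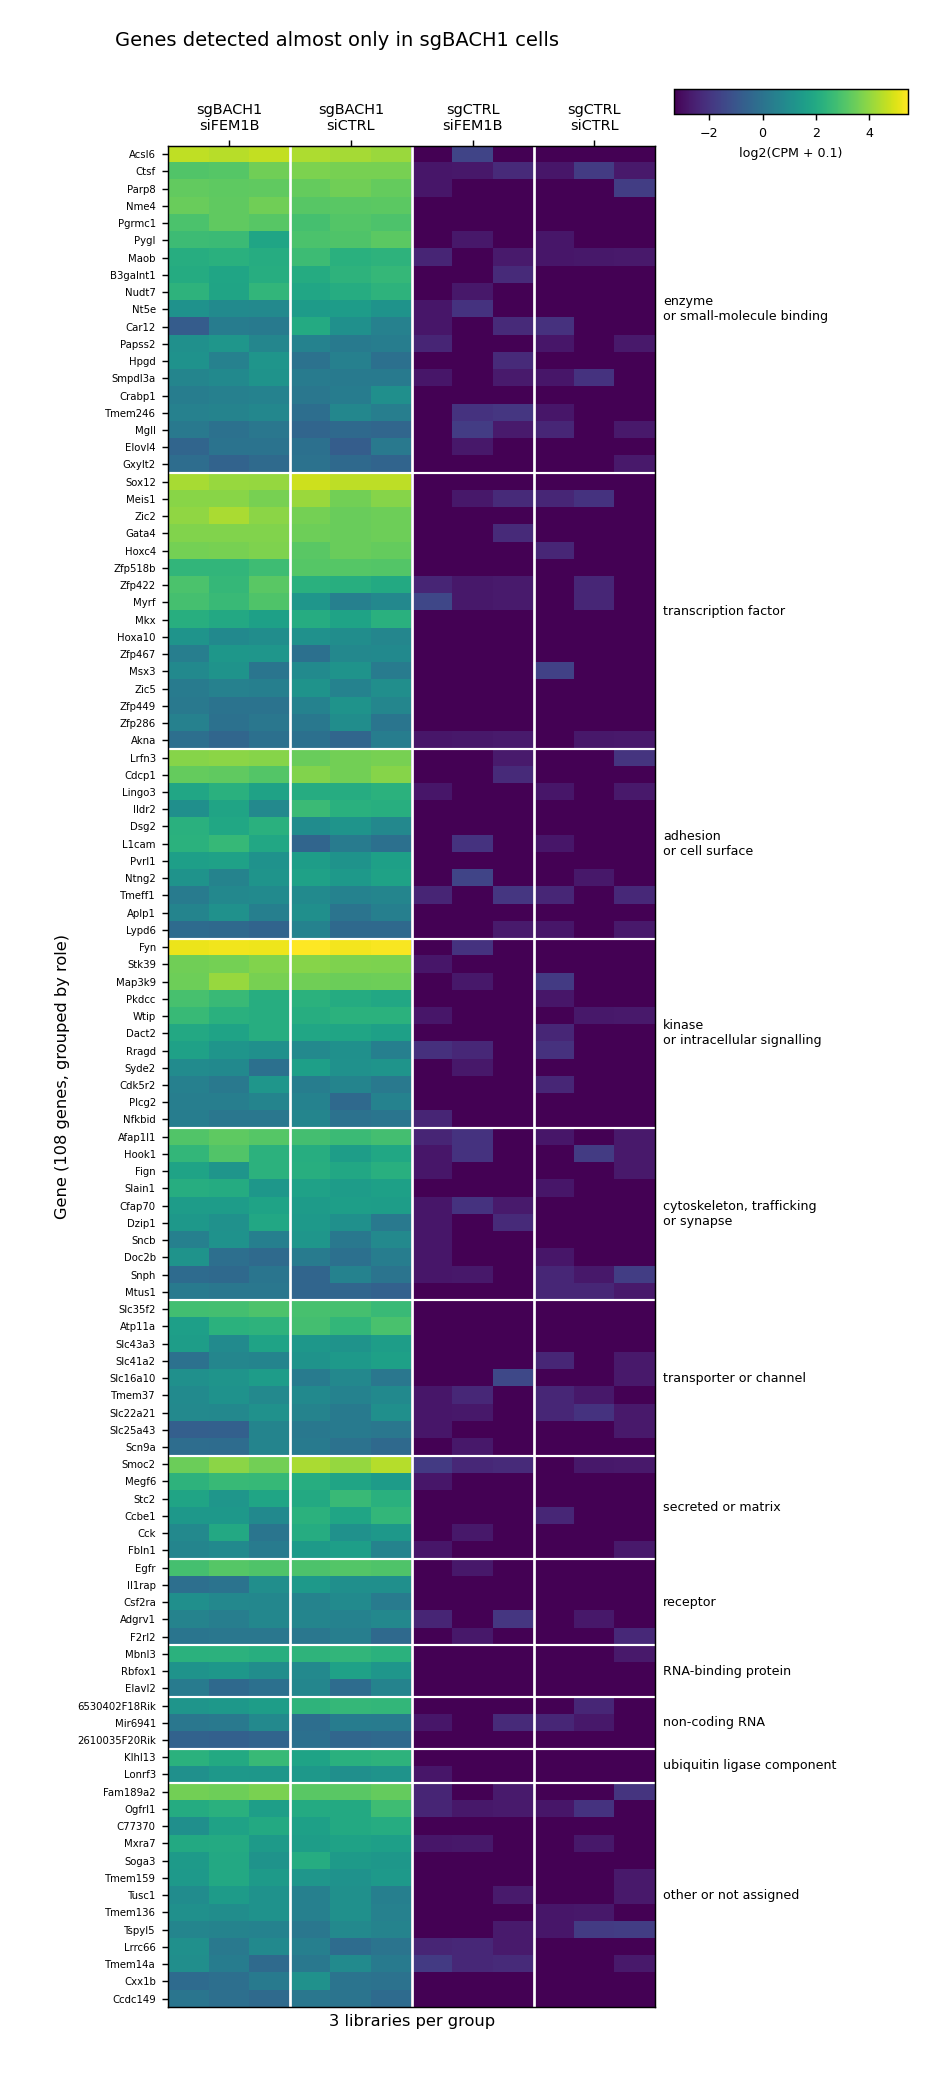
Level of 108 of the 110 genes (rows, grouped by role) in each of the 12 libraries (columns, 3 per group), as log2(CPM + 0.1). All rows are brighter in the 6 sgBACH1 columns, as the rule requires; among these, L1cam and Myrf are brighter with siFEM1B and Car12, Ildr2 and 6530402F18Rik with siCTRL.

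Signalling proteins held the highest gene. Fyn, a SRC-family tyrosine kinase (chr10:39369743-39565381, GRCm38.p6, the assembly that mm10 denotes), was measured at 36.4, 37.8 and 37.2 CPM in sgBACH1 cells with siFEM1B, 43.5, 39.3 and 40.8 CPM in sgBACH1 cells with siCTRL, and at 3 counts in 1 sgCTRL library and 0 in the other 5. The siFEM1B values lie just below the siCTRL values without overlap, and the ratio of summed counts between sgBACH1 and sgCTRL libraries, scaled to library size, was 1627 (exact 95% interval 557 to 7894, which covers counting error only). Stk39, the kinase SPAK that regulates cation-chloride cotransport, averaged 13.0 ± 1.09 CPM in sgBACH1 cells (SD, n = 6) with 1 count in sgCTRL cells. Map3k9, an activator of the JNK pathway, averaged 12.4 ± 2.19 CPM in sgBACH1 cells, with 5 counts in sgCTRL cells. The other 8 genes of the group, among them Pkdcc, Wtip, Dact2 and Plcg2, lay at or below 5.05 CPM.

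The relatives of Fyn were expressed in both kinds of cell. Of 9 SRC family kinases, 5 besides Fyn were high enough to test, and with siCTRL Yes1, Lyn and Frk were called higher and Src lower in sgBACH1 cells (edgeR quasi-likelihood test, Benjamini-Hochberg adjusted p under 0.05, n = 3 per group), in a contrast that called 50.5% of all genes (24.2% higher, 26.3% lower). Src averaged 219 ± 4.47 CPM in sgBACH1 cells and 277 ± 3.62 CPM in sgCTRL cells, a log2 fold change of −0.34 ± 0.05 (approximate SE, adjusted p = 2.11e-05). Lyn averaged 11.1 ± 0.845 CPM in sgBACH1 cells and 6.13 ± 0.501 CPM in sgCTRL cells, a log2 fold change of 0.86 ± 0.13 (adjusted p = 1.27e-05). None of the 5 tested relatives met the rule.

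Transcription factors were the group with the most genes at 0 in control cells, 10 of 18. Sox12, an activator of the SOXC group (chr2:152393611-152398046), was measured at 19.8, 16.9 and 16.5 CPM in sgBACH1 cells with siFEM1B, 27.4, 23.9 and 23.6 CPM in sgBACH1 cells with siCTRL, and 0 in all 6 sgCTRL libraries. All 3 siFEM1B values lie below the 3 siCTRL values, and against a floor of 3 counts over the 6 sgCTRL libraries Sox12 was at least 893-fold higher in sgBACH1 cells. Zic2, a zinc-finger factor of neural development (chr14:122475384-122480328), was also at 0 in all sgCTRL libraries and averaged 14.2 ± 3.45 CPM in sgBACH1 cells, at least 584-fold higher.

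Several of the other factors pattern embryonic tissues. Meis1, a homeobox cofactor of HOX proteins, averaged 14.3 ± 2.03 CPM in sgBACH1 cells (8 counts over the sgCTRL libraries). Gata4, a zinc-finger factor of heart and endoderm, averaged 12.4 ± 1.45 CPM, with 2 counts in sgCTRL cells. The homeobox gene Hoxc4 averaged 11.3 ± 1.57 CPM. Lower members included Zfp518b (7.18 CPM), Zfp422 (5.92 CPM), Myrf (4.40 CPM), Mkx (3.91 CPM), Hoxa10 (1.87 CPM), Msx3 (1.65 CPM) and Zic5 (1.54 CPM).

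The closest relatives of Sox12 did not share its pattern. Sox4 averaged 196 ± 9.56 CPM in sgBACH1 cells and 241 ± 10.1 CPM in sgCTRL cells with siCTRL (log2 fold change −0.30 ± 0.07, adjusted p = 0.000828), and Sox11 was at 0 in every library. Of 16 other SOX genes, 5 were tested, with 3 called higher and 2 lower in sgBACH1 cells. Sox21 fell outside the rule because of its low level, with 73 counts over the sgBACH1 libraries and 0 over the sgCTRL libraries.

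Among enzymes, Acsl6 led. It activates long-chain, mainly polyunsaturated, fatty acids to their acyl-CoA esters (chr11:54303805-54364756). Acsl6 was measured at 24.1, 22.6 and 24.99 CPM in sgBACH1 cells with siFEM1B, 20.5, 19.0 and 17.2 CPM in sgBACH1 cells with siCTRL, and at 5 counts in 1 sgCTRL library and 0 in the other 5. The siFEM1B values lie above the siCTRL values without overlap, and the ratio of sgBACH1 to sgCTRL counts was 529 (226 to 1631). The sgCTRL library with the 5 Acsl6 counts is the one that also held the 3 Fyn counts, the second siFEM1B replicate.

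Of the 6 other acyl-CoA synthetases on the list, 5 were high enough to test and Acsbg2 had 2 counts over all libraries. Acsl3 and Acsl5 were called higher and Acsl1, Acsl4 and Acsbg1 lower in sgBACH1 cells with siCTRL. Acsl4, which activates polyunsaturated fatty acids to acyl-CoA esters and promotes ferroptosis, averaged 239 ± 8.4 CPM in sgBACH1 cells and 294 ± 18.7 CPM in sgCTRL cells (log2 fold change −0.30 ± 0.08, adjusted p = 0.0029). Per kilobase of exon, Acsl6 stood at 2.16 CPM in sgBACH1 cells, in 16th place among the 110 genes, with 9914 bases of exon.

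The promoter of Acsl6 is shown with that of Tmem37, since the recognition element of BACH1 and small MAF proteins was found in these. Windows of 250 bases before to 50 after an annotated start, from RefSeq (GRCm38.p6), were on hand for 85 of the 110 genes, 112 windows in all. The letters GCTGAGTCA were sought on both strands. They were present in 2 of the 112 windows (1.79%) and in 49 of the 12125 windows of other genes with 10 or more counts in each sgBACH1 library (0.404%). With only 2 windows, these shares are too uncertain to compare, and the difference was not tested. The 2 windows follow, 5′ to 3′ on the strand of the gene, with capitals marking the element and any antioxidant response element core, TGACNNNGC, in the window.
Acsl6: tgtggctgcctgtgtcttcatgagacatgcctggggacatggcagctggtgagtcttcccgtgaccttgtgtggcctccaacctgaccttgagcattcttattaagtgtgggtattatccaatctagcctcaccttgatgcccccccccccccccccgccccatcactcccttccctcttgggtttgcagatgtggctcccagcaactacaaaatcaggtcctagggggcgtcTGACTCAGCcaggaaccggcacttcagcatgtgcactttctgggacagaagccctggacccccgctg
Tmem37: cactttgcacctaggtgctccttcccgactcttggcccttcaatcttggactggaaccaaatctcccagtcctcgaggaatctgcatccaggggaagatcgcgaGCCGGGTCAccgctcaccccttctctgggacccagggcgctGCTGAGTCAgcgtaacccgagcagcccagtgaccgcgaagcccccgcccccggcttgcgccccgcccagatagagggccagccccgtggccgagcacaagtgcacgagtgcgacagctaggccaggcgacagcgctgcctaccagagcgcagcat
The Acsl6 window (chr11:54303574-54303873, plus strand) is 1 of 3 listed for that gene, and the element, read there as TGACTCAGC, begins 17 bases before the start. The Tmem37 window (chr1:120073731-120074030, minus strand) holds the element 105 bases before the start and a separate core 146 bases before it. Tmem37, annotated as a calcium channel subunit, averaged 1.71 ± 0.229 CPM in sgBACH1 cells and had 6 counts over the sgCTRL libraries. The match is a description of the letters and not evidence of a site.

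Other elements were no more frequent than elsewhere. The antioxidant response element core was in 12 of the 112 windows (10.7%), against 14.4% of the windows of other detected genes. The AP-1 element, TGANTCA, which overlaps the BACH1 element, was in 4 (3.57%, against 5.21%), and the TATA box, TATAAA, in 5 (4.46%, against 6.89%).

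Pgrmc1, a heme-binding membrane protein that interacts with cytochrome P450 enzymes (chrX:36598193-36606079), was measured at 7.71, 9.88 and 8.99 CPM in sgBACH1 cells with siFEM1B, 7.16, 8.48 and 7.95 CPM in sgBACH1 cells with siCTRL, and 0 in all sgCTRL libraries. The 2 siRNA groups overlap, and Pgrmc1 was at least 346-fold higher in sgBACH1 than in sgCTRL cells. Its paralogue Pgrmc2 averaged 130 ± 3.21 CPM in sgBACH1 and 139 ± 4.36 CPM in sgCTRL cells with siCTRL (log2 fold change −0.10 ± 0.05, adjusted p = 0.138). Of the rest of the family, Nenf was called higher in sgBACH1 cells (0.27 ± 0.09, adjusted p = 0.0146) and Cyb5d2 was not called (0.06 ± 0.17, adjusted p = 0.801).

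Other enzymes reached similar levels. Ctsf, a lysosomal cysteine protease, averaged 11.1 ± 2.08 CPM in sgBACH1 cells, and Parp8, a mono-ADP-ribosyltransferase, 10.2 ± 0.683 CPM. Nme4, a mitochondrial nucleoside diphosphate kinase, averaged 9.93 ± 1.07 CPM and was at 0 in sgCTRL cells, at least 410-fold higher in sgBACH1 cells. The monoamine oxidase Maob averaged 4.86 ± 0.772 CPM, the ecto-nucleotidase Nt5e 2.19 ± 0.477 CPM and the monoglyceride lipase Mgll 0.822 ± 0.193 CPM.

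At the cell surface, Lrfn3, a synaptic adhesion protein, averaged 13.1 ± 1.76 CPM in sgBACH1 cells and Cdcp1, a transmembrane glycoprotein phosphorylated by SRC kinases, 11.4 ± 2.26 CPM. Egfr, the receptor of epidermal growth factor (chr11:16752203-16913907), was measured at 7.08, 8.64 and 8.03 CPM in sgBACH1 cells with siFEM1B, 7.79, 8.43 and 8.09 CPM in sgBACH1 cells with siCTRL, and at 1 count in 1 sgCTRL library. The siRNA groups overlap fully. The other 4 receptors, Il1rap, Csf2ra, Adgrv1 and F2rl2, averaged 1.68, 1.58, 1.45 and 0.994 CPM in sgBACH1 cells. F2rl2 lies on the opposite strand within Iqgap2, which averaged 17.5 CPM in sgBACH1 and 16.8 CPM in sgCTRL cells; the strand setting of the counting is not given in the sources used here.

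Secreted proteins were led by Smoc2, a calcium-binding matrix protein (chr17:14279490-14404790), which was measured at 10.96, 15.1 and 11.9 CPM in sgBACH1 cells with siFEM1B and 19.9, 16.5 and 21.9 CPM in sgBACH1 cells with siCTRL. It had 1 to 4 counts in 5 of the sgCTRL libraries and 10 in all, and the ratio of sgBACH1 to sgCTRL counts was 202 (109 to 421). Stc2, a glycoprotein hormone (chr11:31359441-31370061), was measured at 3.35, 2.32 and 3.50 CPM with siFEM1B and 3.95, 6.04 and 4.62 CPM with siCTRL in sgBACH1 cells, and 0 in all sgCTRL libraries, at least 166-fold higher in sgBACH1 cells. The siFEM1B values of both genes all lie below their siCTRL values. Stc1, the only relative of Stc2, had 34 counts over the sgBACH1 and 2 over the sgCTRL libraries, too few to test. Sparc, a relative of Smoc2, averaged 486 ± 5.96 CPM in sgBACH1 and 701 ± 7.55 CPM in sgCTRL cells with siCTRL, with a log2 fold change at −0.53 ± 0.04 (adjusted p = 5.12e-09).

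The remaining members of the 20 highest were Fam189a2 (10.7 CPM in sgBACH1 cells), the actin-associated Afap1l1 (7.81 CPM) and the solute transporter Slc35f2 (7.01 CPM, at 0 in sgCTRL cells). Transporters below these included the phospholipid flippase Atp11a (5.47 CPM), the magnesium transporter Slc41a2 (1.93 CPM) and the sodium channel Scn9a (0.946 CPM). The RNA-binding regulators of splicing and RNA stability were Mbnl3 at 4.87 CPM, Rbfox1 at 2.25 CPM and Elavl2 at 1.07 CPM. The gut hormone gene Cck varied between replicates, with 1.65, 3.78 and 0.966 CPM with siFEM1B and 4.16, 2.05 and 2.45 CPM with siCTRL in sgBACH1 cells. Per kilobase of exon, and leaving aside the short Mir6941 locus, the highest level in sgBACH1 cells was that of Fyn at 8.98 CPM, then Nme4 at 6.28, Zic2 at 4.93, Sox12 at 4.79, Lrfn3 at 4.56 and Pgrmc1 at 4.50 CPM.

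The other genes lay within the range of their groups in sgBACH1 cells. Enzymes and small-molecule binders ran from 0.715 to 21.4 CPM and also included B3galnt1, Nudt7, Papss2, Smpdl3a, Crabp1, Tmem246, Elovl4 and Gxylt2. Transcription factors ran from 0.835 to 21.3 CPM, and also included Zfp467, Zfp449, Zfp286 and Akna, and adhesion and surface proteins from 0.799 to 13.1 CPM, with Lingo3, Pvrl1, Tmeff1 and Lypd6. Signalling proteins also included Rragd, Syde2 and Cdk5r2, and secreted proteins Fbln1. Transporters ran from 0.946 to 7.01 CPM, with Slc43a3, Slc16a10 and Slc22a21. The cytoskeleton, trafficking and synapse group ran from 0.834 to 7.81 CPM, with Fign, Slain1, Cfap70, Dzip1, Sncb, Doc2b, Snph and Mtus1, and none of its 10 genes was at 0 in sgCTRL cells. Klhl13, a substrate adaptor of CUL3 ligases, averaged 4.58 CPM and Lonrf3 2.25 CPM. The 13 genes without an assigned role ran from 0.865 to 10.7 CPM and also comprised Ogfrl1, C77370, Mxra7, Tmem159, Tusc1, Tmem136, Tspyl5, Lrrc66, Tmem14a and Ccdc149.

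Some counts cannot be assigned to 1 gene. Mir6941 (chr12:112920483-112920541) lies within Jag2 on the same strand, and Jag2, a Notch ligand, averaged 79.6 and 86.6 CPM in sgBACH1 cells with siFEM1B and siCTRL, against 5.29 and 2.62 CPM in sgCTRL cells, so the 1.14 CPM counted for Mir6941 in sgBACH1 cells and reads of Jag2 cannot be told apart. Soga3 overlaps 9330159F19Rik on the same strand, and Ntng2 overlaps the non-coding 6530402F18Rik. Cxx1b, at 1.08 CPM in sgBACH1 cells, has near-identical copies, so its value is uncertain. In all, 47 of the 110 genes overlap another annotated gene, in most cases a locus with no row in the count table or one near 0.

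The 110 genes lay on 20 chromosomes. The X chromosome held 11 of them, 2.89% of its 381 genes with 10 or more counts in each sgBACH1 library, and chromosome 14 held 7 of 406 (1.72%). The lowest share was on chromosome 3, with 2 of 587 (0.341%). The X-linked genes included Pgrmc1, Mbnl3, Maob, Klhl13, C77370, L1cam, Lonrf3, Zfp449, Cxx1b and Slc25a43, in order of their level in sgBACH1 cells. None of the 18 genes of the mirrored rule was on the X chromosome. That chromosome held 381 of the 12242 genes with a position and 10 or more counts in each sgBACH1 library. The 18 genes are therefore too few to compare.

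**Figure D3:**
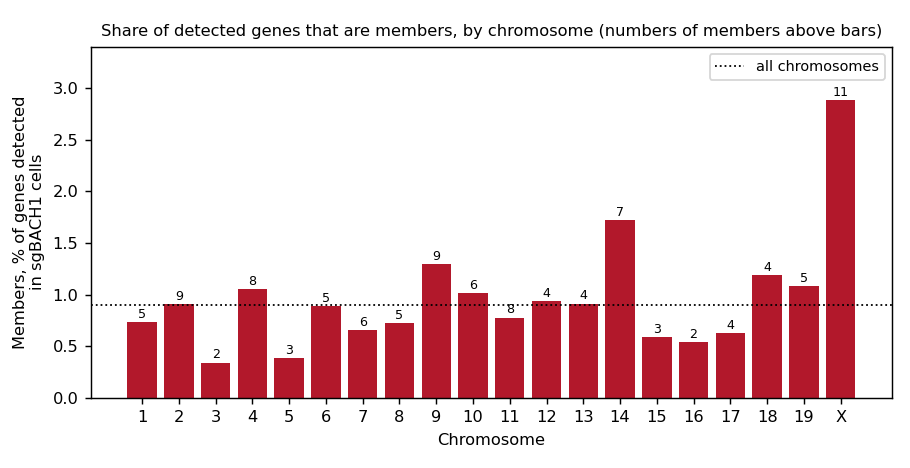
Genes detected almost only in sgBACH1 cells as a percentage of the genes with 10 or more counts in each sgBACH1 library, by chromosome, with the number of genes above each bar and the share over all chromosomes as a dotted line. The X chromosome has the highest bar, at 2.89% (11 genes).

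Of the 110 genes, 25 lay within 1 Mb of another, in 17 pairs. The same share for other detected genes is not given here, so these counts do not show clustering. There were 5 runs with no other detected gene between the members. The most compact was Zic5, 2610035F20Rik and Zic2 on chromosome 14 (chr14:122459160-122480328, 21.2 kb), 2 zinc-finger genes with a non-coding RNA whose gene ends 184 bases from Zic2. All 3 were at 0 in every sgCTRL library, while the flanking genes were detected in both genotypes: Clybl averaged 23.7 CPM in sgBACH1 and 13.7 CPM in sgCTRL cells, and Pcca 19.1 and 19.9 CPM.

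The longest run was on the X chromosome, where Lonrf3, Pgrmc1 and Slc25a43 spanned 449 kb (chrX:36328358-36777307). Akap17b, within it, had 78 counts over the sgBACH1 and 7 over the sgCTRL libraries. Its flanks were again detected in both genotypes, with Il13ra1 at 3.86 CPM in sgBACH1 and 5.56 CPM in sgCTRL cells, and Slc25a5 at 256 and 278 CPM. On chromosome 7, Lrfn3, Nfkbid and Aplp1 spanned 90.1 kb between Sdhaf1 (11.4 CPM in sgBACH1 and 16.7 CPM in sgCTRL cells) and Arhgap33 (8.32 and 6.92 CPM). The last 2 runs were Dact2 with Smoc2 on chromosome 17, next to Mllt4 (269 CPM in sgBACH1 and 284 CPM in sgCTRL cells), and Ntng2 with 6530402F18Rik on chromosome 2. Ntng2 and 6530402F18Rik overlap, so their counts may not be separate.

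The CpG content of the promoters, the dinucleotide that DNA methylation acts on in mammals, lay between that of other detected genes and that of all genes. The ratio of observed to expected CpG had a median of 0.674 over the 112 windows, against 0.763 over the 12125 windows of other detected genes, 0.571 over all 21844 windows of genes in the count table and 0.188 over the 17 windows of the genes of the mirrored rule. It was 0.6 or more in 58.9% of the 112 windows, against 70.9% of those of other detected genes and 11.8% of those of the mirrored rule. The first quartile over the 112 windows was 0.490. The example windows that follow all lie above this quartile, while the Acsl6 window shown earlier lies below it. As examples, the windows of Sox12 and of the 3 genes of the X-chromosome run follow, with each CpG in capitals. They read 5′ to 3′ on the strand of the gene.
Sox12: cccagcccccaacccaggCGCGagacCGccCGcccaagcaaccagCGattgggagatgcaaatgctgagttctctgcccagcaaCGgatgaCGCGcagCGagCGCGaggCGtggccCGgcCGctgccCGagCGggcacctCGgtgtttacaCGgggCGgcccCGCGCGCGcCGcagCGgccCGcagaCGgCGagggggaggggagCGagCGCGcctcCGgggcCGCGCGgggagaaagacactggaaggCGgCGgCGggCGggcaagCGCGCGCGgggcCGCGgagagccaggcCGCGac
Pgrmc1: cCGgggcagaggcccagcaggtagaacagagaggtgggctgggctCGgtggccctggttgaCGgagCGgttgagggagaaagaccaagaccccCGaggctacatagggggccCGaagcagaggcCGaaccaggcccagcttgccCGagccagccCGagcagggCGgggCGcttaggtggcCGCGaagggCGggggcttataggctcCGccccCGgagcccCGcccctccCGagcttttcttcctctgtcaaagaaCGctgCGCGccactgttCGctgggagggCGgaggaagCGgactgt
Lonrf3: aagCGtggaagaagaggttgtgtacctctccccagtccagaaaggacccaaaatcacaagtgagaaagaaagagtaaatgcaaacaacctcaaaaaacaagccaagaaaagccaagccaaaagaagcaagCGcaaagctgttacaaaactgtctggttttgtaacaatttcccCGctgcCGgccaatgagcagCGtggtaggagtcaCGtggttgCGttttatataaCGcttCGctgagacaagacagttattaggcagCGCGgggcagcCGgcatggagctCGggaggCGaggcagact
Slc25a43: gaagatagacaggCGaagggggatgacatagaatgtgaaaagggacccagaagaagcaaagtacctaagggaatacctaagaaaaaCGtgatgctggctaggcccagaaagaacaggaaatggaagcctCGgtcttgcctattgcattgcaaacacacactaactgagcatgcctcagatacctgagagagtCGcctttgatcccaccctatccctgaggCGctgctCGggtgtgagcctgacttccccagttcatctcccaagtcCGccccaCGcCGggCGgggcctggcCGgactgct
The Sox12 window (chr2:152397997-152398296, minus strand) holds 47 CpG, a ratio of 1.07. The Pgrmc1 window (chrX:36597943-36598242, plus strand) holds 24 (0.682), and also an antioxidant response element core, TGACGGAGC, 192 bases before the start. The Lonrf3 window (chrX:36328159-36328458, plus strand) holds 14 (0.764), with the TATA box letters on the minus strand 32 bases before the start, and the Slc25a43 window (chrX:36743382-36743681, plus strand) holds 11 (0.491). No methylation was measured.

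FEM1B siRNA was then compared with control siRNA in the knockout cells. All 110 genes passed the filter on low counts. With siFEM1B, 8 of them were called higher and 13 lower (edgeR quasi-likelihood test, Benjamini-Hochberg adjusted p under 0.05 over the 13281 genes tested), 19.1% of the 110, where 41.7% of all genes tested were called, 21.9% higher and 19.8% lower. The share called was thus below that of all genes. The genes were also lower and less precisely measured, with a median average log2 CPM of 0.41 against 5.09 and a median approximate SE of 0.28 against 0.09. That average spans all 12 libraries, of which the rule holds the 6 sgCTRL libraries near 0. In the sgBACH1 libraries alone the medians were 2.48 CPM, and 38.8 CPM for other genes with 10 or more counts in each. Of the 48 genes among the 110 with a mean of 3 CPM or more in sgBACH1 cells, 17 were called. The median log2 fold change of the 110 genes was 0.02, as it was over all genes tested, with 56 genes above 0 and 54 below. The replicates of the 2 siRNA groups did not overlap for 44 of the 110 genes (40.0%), 21 higher and 23 lower, against 51.5% of all genes tested (27.3% higher, 24.3% lower), and all 21 called genes were among the 44. Without siCTRL replicate 3 or siFEM1B replicate 1 of the sgBACH1 cells 8 genes were called lower, and a fit to the 6 sgBACH1 libraries alone called 15 higher.

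**Figure D4:**
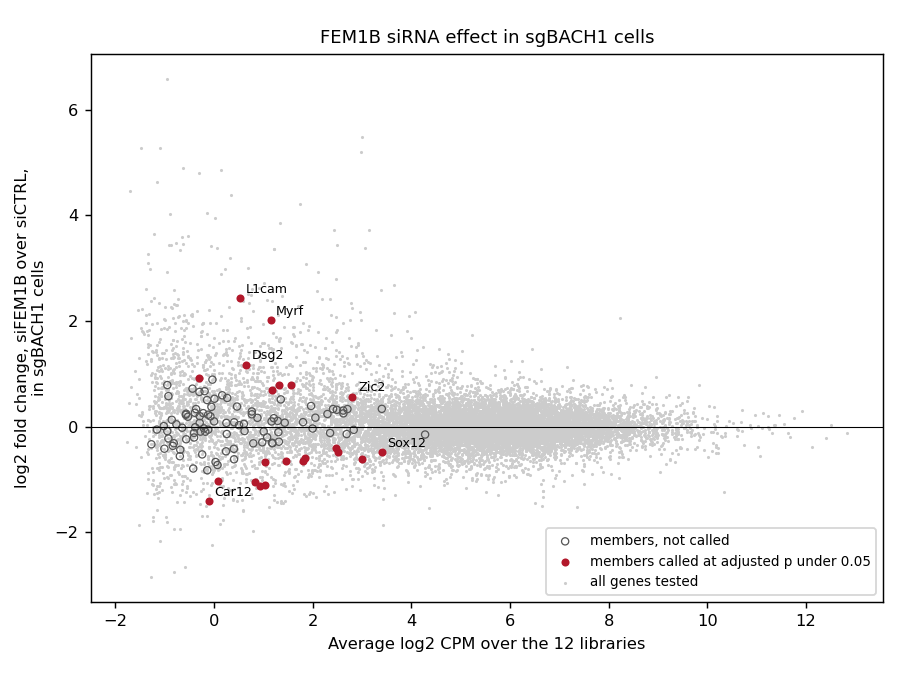
Log2 fold change with siFEM1B over siCTRL in sgBACH1 cells (vertical) against average log2 CPM over the 12 libraries (horizontal), for the 110 genes (filled red where called at adjusted p under 0.05, open otherwise) and all 13281 genes tested (grey). The 110 genes spread to both sides of 0, from −1.41 for Car12 to 2.43 for L1cam.

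The genes raised by siFEM1B were led by L1cam and Myrf. L1cam, a cell adhesion protein of the immunoglobulin superfamily, was measured at 4.70, 5.72 and 3.74 CPM in sgBACH1 cells with siFEM1B and 0.631, 1.15 and 0.832 CPM with siCTRL, a log2 fold change of 2.43 ± 0.32 (adjusted p = 5.69e-06). Myrf, a membrane-bound factor that activates myelin genes, was measured at 7.13, 5.99 and 8.03 CPM with siFEM1B and 2.32, 1.30 and 1.62 CPM with siCTRL, a log2 fold change of 2.02 ± 0.27 (adjusted p = 6.06e-06). Their siFEM1B values lie well apart from the siCTRL values. In sgCTRL cells Myrf had 8 counts over the 3 siFEM1B libraries and 2 over the 3 siCTRL libraries, and L1cam 3 and 1, too few to compare.

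The other 6 genes called higher changed less. Dsg2, a desmosomal cadherin, averaged 4.29 ± 0.581 CPM with siFEM1B and 1.901 ± 0.318 CPM with siCTRL (log2 fold change 1.17 ± 0.25, adjusted p = 0.00118). Zic2, measured at 15.8, 19.9 and 15.2 CPM with siFEM1B and 12.2, 10.9 and 11.2 CPM with siCTRL, rose by 0.57 ± 0.14 (adjusted p = 0.00299), while its neighbour Zic5 was not called (−0.53 ± 0.31, adjusted p = 0.184); whether these changes differ was not tested. Zfp422 rose by 0.78 ± 0.21 (adjusted p = 0.00456), Megf6 by 0.70 ± 0.22 (adjusted p = 0.0155) and the dynein adaptor Hook1 by 0.79 ± 0.26 (adjusted p = 0.0178). Hpgd, which inactivates prostaglandins, rose by 0.93 ± 0.35 (adjusted p = 0.042), a call lost in 7 of 17 alternative analyses. Without siCTRL replicate 1 or 3 or siFEM1B replicate 1 or 3 it was lost, as was that of Hook1 without replicate 2 of either siRNA and that of Megf6 without siCTRL replicate 3. Over the alternatives their adjusted p reached 0.146 for Hpgd, 0.136 for Hook1 and 0.0919 for Megf6.

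Among the genes lowered by siFEM1B were Ccbe1, Stc2 and Smoc2, 3 of the 6 secreted and matrix proteins, while Megf6 of the same group rose. Of all genes tested, 19.8% were called lower, and the group, whose members were assigned with earlier results known, was not tested as such. Smoc2, with the values above, fell by 0.62 ± 0.14 on the log2 scale (adjusted p = 0.0011). Ccbe1, a secreted factor of lymphatic development, averaged 2.20 ± 0.44 CPM with siFEM1B and 4.59 ± 1.07 CPM with siCTRL (log2 fold change −1.05 ± 0.27, adjusted p = 0.0042). Stc2 fell by 0.67 ± 0.24 (adjusted p = 0.0352); its adjusted p was 0.176 at the highest over the alternatives, and the call was lost without siCTRL replicate 2 or 3 or siFEM1B replicate 1 or 2.

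Sox12 fell by 0.49 ± 0.11 (adjusted p = 0.00249) and Zfp518b by 0.59 ± 0.16 (adjusted p = 0.00837). The non-coding 6530402F18Rik was measured at 2.28, 2.43 and 2.84 CPM with siFEM1B and 5.05, 5.64 and 5.45 CPM with siCTRL, and fell by 1.10 ± 0.23 (adjusted p = 0.000918). Ntng2, which overlaps it, was not called (−0.62 ± 0.32, adjusted p = 0.125). Ildr2, an immunoglobulin-domain membrane protein, averaged 2.31 ± 0.915 CPM with siFEM1B and 5.08 ± 1.03 CPM with siCTRL, and fell by 1.13 ± 0.28 (adjusted p = 0.00365).

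The other calls, mostly of enzymes and transporters, depended on single libraries. Car12, a carbonic anhydrase, was measured at 0.485, 1.19 and 1.09 CPM with siFEM1B and 3.999, 1.996 and 1.34 CPM with siCTRL, and fell by 1.41 ± 0.44 on the log2 scale (adjusted p = 0.0131). This call rests on the first replicate of each group, and was lost without either, with an adjusted p of up to 0.147. Slc41a2 fell by 1.03 ± 0.31 (adjusted p = 0.0119), Atp11a by 0.65 ± 0.22 (adjusted p = 0.0257), the liver glycogen phosphorylase Pygl by 0.64 ± 0.20 (adjusted p = 0.016), Cdcp1 by 0.48 ± 0.15 (adjusted p = 0.0172) and Ctsf by 0.41 ± 0.15 (adjusted p = 0.0297). The call of Slc41a2 was lost without siCTRL replicate 3 or siFEM1B replicate 1 (adjusted p up to 0.0723), and that of Atp11a without these or siCTRL replicate 1 (up to 0.138). That of Pygl was lost without replicate 3 of either siRNA (up to 0.0946), and that of Cdcp1 without these or siCTRL replicate 1 (up to 0.0833). That of Ctsf was lost without any 1 of the siCTRL replicates or siFEM1B replicate 1 or 2 (up to 0.143).

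Most of the highest genes were not called. The log2 fold change of Fyn was −0.15 ± 0.10 (adjusted p = 0.235), that of Pgrmc1 0.17 ± 0.16 (adjusted p = 0.421), that of Egfr −0.04 ± 0.16 (adjusted p = 0.878) and that of Meis1 −0.06 ± 0.16 (adjusted p = 0.785). Acsl6, with a log2 fold change of 0.34 ± 0.14, missed the threshold (adjusted p = 0.0567) and passed it in 6 of 17 alternative analyses (adjusted p 0.0103 to 0.207). Against 21.9% higher and 19.8% lower among all genes tested, none of the 11 signalling proteins and 5 receptors was called, and the calls were 3 higher and 2 lower among 18 transcription factors, 2 and 2 among 11 adhesion and surface proteins, 1 and 3 among 19 enzymes, and 0 and 2 among 9 transporters. These groups are small, and differences between them were not tested.

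**Figure D5:**
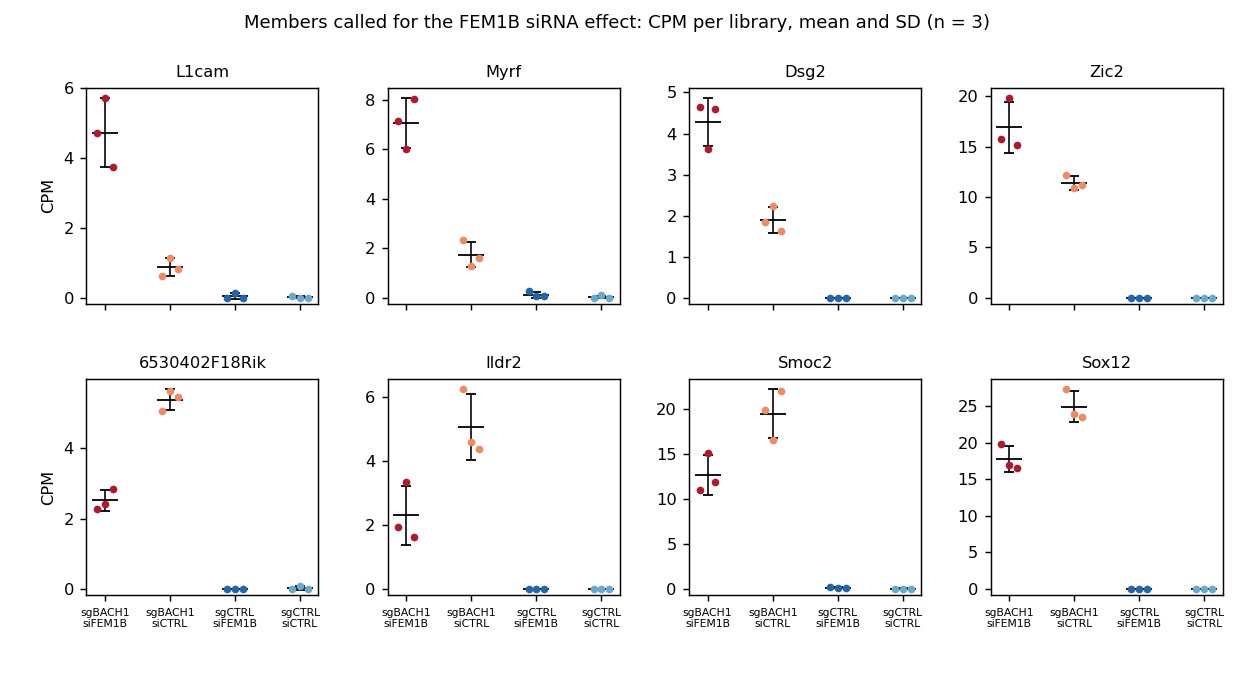
CPM per library (points) with mean and SD (bars, n = 3) in the 4 groups, for 8 of the genes called for the FEM1B siRNA effect in sgBACH1 cells. L1cam, Myrf, Dsg2 and Zic2 are higher with siFEM1B than with siCTRL, 6530402F18Rik, Ildr2, Smoc2 and Sox12 are lower, and all 8 lie near 0 in sgCTRL cells.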

How the data were processed

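The deposited table, by the authors, holds raw counts of reads per gene symbol in 12 libraries, whole numbers that are not normalized. It was used whole. The submitters' processing notes list mm10, Subread, SAMtools 1.9, featureCounts 1.6.4 and DESeq2 1.26.0 without saying which step each served, and the labels' protocols name a stranded mRNA kit. Which annotation and strand setting the counting used is not stated there; both affect genes that overlap or have near-identical copies.

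The 110 genes, the gene lists and the roles were chosen with earlier results of these data known, and the roles after the names were seen. Counts were scaled by TMM factors (0.989 to 1.01) to CPM. Differences were tested, two-sided, with edgeR 4.0.16 in R 4.3.3 (quasi-likelihood, 1 mean for each of 4 groups, 12 libraries, filterByExpr at a minimum count of 10, 8 residual degrees of freedom), with calls at adjusted p under 0.05 (Benjamini-Hochberg, 13281 genes), after the script was tested on simulated data. The approximate SE was taken as the size of the log2 fold change over the root of its F statistic. Folds between genotypes are ratios of summed counts with exact conditional 95% intervals, or lower bounds against 3 counts over 6 libraries; both cover counting error only. Total counts were 16539168 to 22196999 per library. No pair of replicates held identical values (chi-square per degree of freedom 2.54 to 14.1).

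Named genes were Fyn, Sox12, Acsl6, Pgrmc1 and Stc2, the 20 with the highest mean CPM, the 10 largest called rises and falls with siFEM1B, relatives in the gene lists, genes nearest each cutoff, neighbours within 1 Mb and genes with a printed promoter; others are named to account for the set. Positions were matched for all 110 genes, 5 through an older symbol. Exon lengths are from GENCODE vM21, and promoters from RefSeq (GRCm38.p6). DESeq2 1.42.0 served as an alternative test; the closing section gives the effect of all alternatives. A few genes are counted in the totals but are not reported here by name.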

Additional observations from a re-analysis of the deposited data

How the results depend on the processing

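The number of genes depended on the cutoffs: 32 had a control sum of 0 and 73 reached 20 counts in each knockout library, while other cutoffs gave 84 to 138, scaled counts 109, and leaving out 1 library 110 to 122. With siFEM1B, 8 genes were higher and 13 lower under RLE factors and DESeq2, and 10 and 13 without the filter. Fitting only the 6 sgBACH1 libraries gave 15 higher and 16 lower, with a median log2 fold change of 0.00182; the cause was not tested. Leaving out 1 library gave 6 to 11 higher, 8 to 13 lower and medians of −0.00558 to 0.0579. The 8 lower were found without siCTRL replicate 3 and without siFEM1B replicate 1 of the sgBACH1 cells; the lowest median was found without that siFEM1B replicate, and the highest without siCTRL replicate 1. The replicate block gave 7 higher and 12 lower (median 0.0291) and lost the calls of Stc2 and Hpgd. Same-numbered libraries of the sgBACH1 groups did not deviate together (correlations −0.01, −0.11 and −0.02), so no pairing by number was seen there. Pairing of the sgCTRL libraries was not examined. No called gene changed direction under the 17 alternatives. The calls of 6530402F18Rik, Ccbe1, Dsg2, Ildr2, L1cam, Myrf, Smoc2, Sox12, Zfp422, Zfp518b and Zic2 held in all 17, the other 10 were lost in at least 1, and 14 genes gained a call in at least 1. The genes had a median of 2.48 CPM in knockout cells and a median approximate SE of 0.28 on the log2 scale, in which counting error and replicate spread are not separated.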

Other observations

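The mirrored rule, counts in each sgCTRL library and a sum of 10 or less over the sgBACH1 libraries, gave 18 genes. They included Oas3, Oas1a, Oas1b, Oas1c, Ifi44, Ifit3b, Trim30a and Slfn4, which interferon induces. The highest was Oas3, an antiviral oligoadenylate synthetase (chr5:120753098-120777684), at 0.0686 CPM in sgBACH1 cells and 6.97 CPM in sgCTRL cells, and Oas1a, Oas1b and Oas1c lie beside it on chromosome 5. With siFEM1B in sgCTRL cells, where 22.1% of all genes tested were called higher and 22.9% lower, Oas3 averaged 10.6 CPM against 3.36 CPM with siCTRL, a log2 fold change of 1.65 ± 0.20 (edgeR quasi-likelihood test, adjusted p = 1.85e-06). Oas1a rose by 1.604 ± 0.29 (adjusted p = 0.000177) and Tmprss6, a protease that lowers hepcidin, by 2.09 ± 0.38 (adjusted p = 0.000226). Ly6c2, Mab21l3 and Phf11d were also called higher, with log2 fold changes of 1.43, 1.08 and 1.06, so that 6 of the 18 were called higher and none lower. The other 6 of the interferon-induced genes named here were not called (adjusted p 0.269 to 0.855), with log2 fold changes of 0.50 for Ifit3b, 0.45 for Oas1b, 0.22 for Ifi44, 0.17 for Trim30a, 0.11 for Oas1c and −0.10 for Slfn4. The names are not a full list of the interferon-induced genes among the 18, so they give no share called. Whether Ly6c2 and Phf11d belong on it was not assessed. Promoter windows of the 18 genes had a median CpG ratio of 0.188, against 0.674 for the 110 genes detected almost only in sgBACH1 cells.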
